A study of Mus musculus with 12 samples.

Results

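The genes described here encode components that sit with dystrophin at the cytoplasmic face of the muscle fiber membrane. They are the beta-syntrophins Sntb1 and Sntb2, the dystrobrevins Dtna and Dtnb, and neuronal nitric oxide synthase, Nos1. They were chosen by gene symbol, and all 5 of 5 were found among the 23923 genes of the deposited expression values. The symbols place Sntb1 on chromosome 15, Sntb2 on chromosome 8, Dtna on chromosome 18, Dtnb on chromosome 12 and Nos1 on chromosome 5 of the GRCm38 mouse genome, by the GENCODE M21 annotation. The values themselves were made on the mm9 build and carry no positions.

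RNA was sequenced from the tibialis anterior, a fast-twitch muscle of the lower leg, of 12 mice aged 6 weeks, with 1 library per mouse. The study reports using only male tissue in the experiments after its muscle histology, and the sequencing comes later in its account. The 6 control mice were Myf6 cre/+; Smyd1 flox/+ and the 6 Smyd1 CKO mice were Myf6 cre/+; Smyd1 flox/-, on a C57BL6/J;129S1/SvImJ background. Cre was therefore present in both groups and controls had lost 1 copy of Smyd1 in their fibers, while CKOs had lost both. The study also gives both groups a Rosa26 YFP reporter allele. Cre was expressed from the Myf6 locus in skeletal myofibers. By the study's reporter, recombination was barely visible shortly before birth and strong from the day of birth. The floxed allele was thus kept in other cells of the muscle. Those cells carried 1 intact copy of Smyd1 in CKOs, whose other allele was null in all cells, and 2 in controls. The comparison asks how the loss of the SMYD1 methyltransferase from myofibers bears on the RNA levels of the 5 genes in fast-twitch muscle.

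Dystrophin links the cytoskeleton of the fiber to a membrane complex of dystroglycan, sarcoglycans and sarcospan. Dystrobrevin is a relative of dystrophin that binds it through a coiled coil, and syntrophins bind both of them. Syntrophins are adapter proteins with a PDZ domain, and through such a domain neuronal nitric oxide synthase is held at the sarcolemma. The nitric oxide formed there acts on soluble guanylate cyclase, which makes cyclic GMP, and this route is known for widening blood vessels around contracting fibers. The beta-syntrophins and alpha-dystrobrevin are also known at the neuromuscular junction.

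Values are FPKM, fragment numbers scaled to the length of a transcript and to the mapped fragments of the library, so levels of different genes can be set side by side. Group differences are log2(FPKM + 0.1) differences, CKO minus control, from limma. The fit took in the 12695 genes that reached 0.1 FPKM in 6 or more of the 12 libraries, and the Benjamini-Hochberg adjustment ran over the same genes. A gene was called at an adjusted P below 0.05. All 5 genes passed the filter. Most genes lay slightly higher in CKO libraries (median log2 difference 0.18, 77.9% of genes positive), and scaling each library by its median ratio to the mean library brought the median to 0.01. For the 5 genes, differences after this scaling are given beside those from the values as deposited, and for other genes where stated. Relative sequencing depth ran over a 1.80-fold range, and the depth in reads is unknown. The sum of 8 slow-fiber genes was above every control (22.1 to 57.6 FPKM) in CKO 1, CKO 3 and CKO 6, with 322 FPKM in CKO 6, so results were also computed without these 3 libraries. Smyd1 itself was 37.4 ± 5.64 FPKM in controls and 34.1 ± 4.37 FPKM in CKOs (SD, n = 6 each; limma, log2 difference -0.13, adjusted P = 0.545), or -0.32 with an adjusted P of 0.0797 after scaling. A value for the whole gene does not show whether the floxed part is present, so it does not check the genotype labels. By western blot, the study found no detectable SMYD1 protein in CKO tibialis anterior. It does not say whether those mice were the ones sequenced.

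Of the 5 genes, Sntb1 alone passed the adjusted threshold, and it was lower in CKO muscle. Nos1 was lower to about the same degree but with wider spread, and it passed only at an unadjusted P below 0.05. Sntb2, Dtna and Dtnb had higher means in CKOs that did not pass the adjusted test. Over all genes tested, 0.268% were called lower and 2.02% were called higher, and at an unadjusted P below 0.05 the shares were 1.76% lower and 18.1% higher. After median-ratio scaling the unadjusted shares were 7.44% lower and 6.62% higher. Among the 5 genes, 2 were lower (Sntb1 and Nos1) and 1 higher (Dtna) at the unadjusted threshold, and 2 and 0 after scaling. Because the tissue was sequenced in bulk, fewer cells of a type and less RNA per cell cannot be told apart in any of these values. The plot of FPKM by mouse gives each gene its own linear axis from 0.

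**Figure D1:**
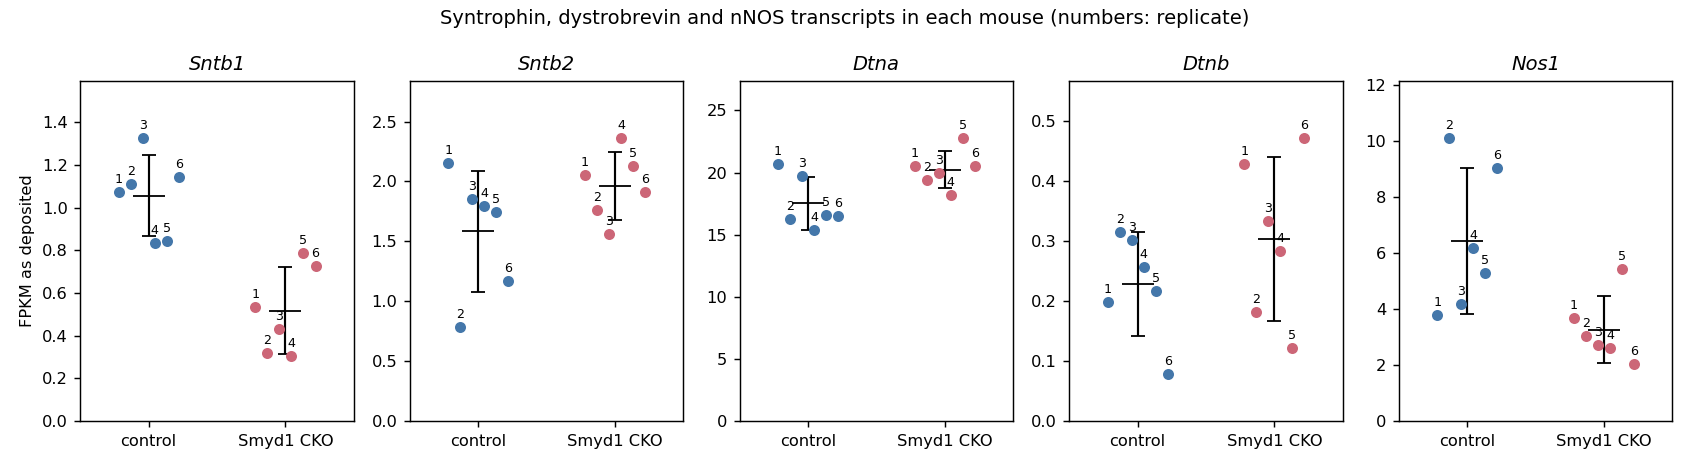
FPKM of Sntb1, Sntb2, Dtna, Dtnb and Nos1 in each of the 6 control and 6 Smyd1 CKO libraries (points, with the replicate number), with the group mean and SD (bars). All 6 CKO values of Sntb1 lie below all 6 control values, 5 of 6 CKO values of Nos1 do so, and the groups overlap for the other genes.

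Sntb1 encodes beta-1-syntrophin. Its control values ran from 0.832 FPKM through a median of 1.09 to 1.33 FPKM. In CKOs the lowest value was 0.306 FPKM, the median 0.482 and the highest 0.786 FPKM. Every CKO thus lay below every control, and the nearest libraries were CKO 5 and control 4. Groups separated in this direction for 24 of all genes tested, or 0.189%. The mean fell from 1.06 ± 0.190 FPKM to 0.517 ± 0.205 FPKM (SD, n = 6 each), a change of -51.0%. The log2 difference was -0.96 (standard error 0.216, 95% confidence interval -1.42 to -0.50, limma adjusted P = 0.0340). The unadjusted limma P of 0.000479 gave Sntb1 place 179 among the 12695 genes. After median-ratio scaling the difference was -1.12 (adjusted P = 0.0133). The call rested on the full set of libraries. It was lost on leaving out any control other than control 1, or any of CKO 1 to CKO 4, with the adjusted P running from 0.0139 to 0.0772 over the 12 fits. Without CKO 1, CKO 3 and CKO 6 the log2 difference was -1.10 and the adjusted P was 0.266, in a fit that called 7 genes in all (0.0575%). These levels, from 0.306 to 1.33 FPKM, are low. The number of fragments behind each value is unknown, so no counting interval is given.

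Sntb2 encodes beta-2-syntrophin. The lowest control value was 0.783 FPKM, the median 1.77 and the highest 2.15 FPKM, and the CKO values went from 1.56 through 1.99 to 2.37 FPKM. The 2 lowest libraries were both controls, control 2 at 0.783 and control 6 at 1.17 FPKM, and the other 4 controls lay within the CKO range. Group means were 1.58 ± 0.507 FPKM and 1.96 ± 0.284 FPKM (SD, n = 6 each). The log2 difference of 0.35 had a 95% confidence interval from -0.09 to 0.79 (limma, adjusted P = 0.353). With median-ratio scaling it was 0.17, with an interval from -0.21 to 0.56.

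The share of Sntb1 in the summed FPKM of the beta-syntrophins does not depend on how a library is scaled. It was between 31.7% and 58.7% in controls and between 11.4% and 27.6% in CKOs, so that the groups did not overlap. The highest controls were control 2 at 58.7% and control 6 at 49.5%, the libraries with the lowest Sntb2. The lowest CKO was CKO 4 at 11.4%. On average Sntb1 made up 41.2% ± 11.0 of the pair in controls and 20.6% ± 6.36 in CKOs (SD, n = 6 each), a difference of -20.7 percentage points (exact permutation test over all assignments, two-sided, P = 0.00216, the smallest that this design allows, and 0.00433 after adjustment over the 2 shares tested). The log2 ratio of Sntb1 to Sntb2 differed by -1.31 (exact permutation P = 0.00216). Share and ratio are built from the Sntb1 values given above, and the genes were chosen with earlier results known. These P-values are therefore not independent support for the lower Sntb1. Without CKO 1, CKO 3 and CKO 6 the share differed by -23.3 points (exact permutation P = 0.0238). The summed FPKM of both genes was 2.64 ± 0.512 in controls and 2.48 ± 0.365 in CKOs, with ranges that overlapped. That sum was looked at after the values of each gene were known and was not tested.

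**Figure D2:**
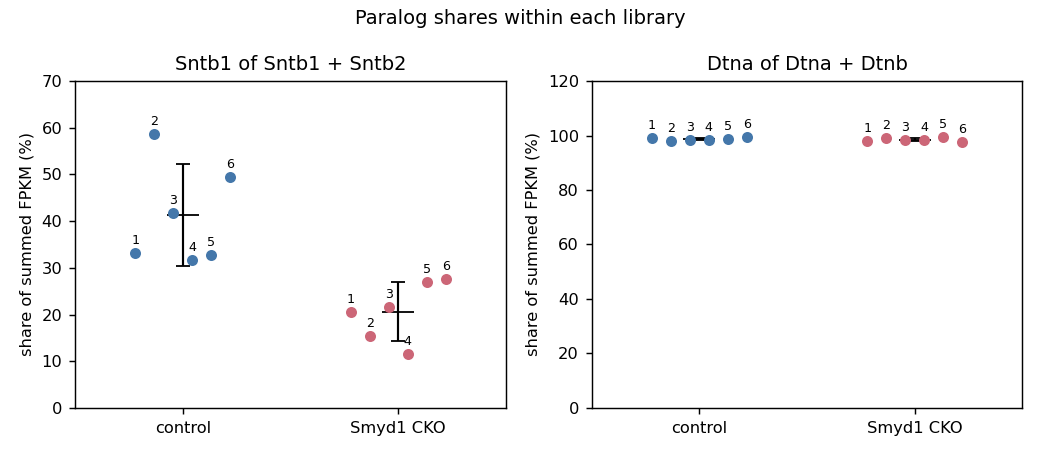
Percent of summed FPKM taken by Sntb1 within Sntb1 and Sntb2, and by Dtna within Dtna and Dtnb, in each control and Smyd1 CKO library (points), with the group mean and SD (bars). The Sntb1 share is 31.7% to 58.7% in controls and 11.4% to 27.6% in CKOs, while the Dtna share is above 97% in all 12 libraries.

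Dtna encodes alpha-dystrobrevin, the main dystrobrevin of skeletal muscle. Its control values ran from 15.4 through a median of 16.6 to 20.7 FPKM, and its CKO values from 18.2 through 20.3 to 22.8 FPKM. Controls 1 and 3 lay among the CKOs, at 20.7 and 19.7 FPKM, and the other 4 controls lay below every CKO. The means were 17.5 ± 2.13 FPKM in controls and 20.2 ± 1.53 FPKM in CKOs (SD, n = 6 each). The log2 difference of 0.21 (95% confidence interval 0.01 to 0.42) had an unadjusted limma P of 0.0439 and an adjusted P of 0.236. It was close to the median difference of all genes, and 56.2% of the genes tested had a lower value. After median-ratio scaling it was 0.03, with an interval from -0.13 to 0.18 and an adjusted P of 0.919.

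Dtnb encodes beta-dystrobrevin, which is best known from tissues other than muscle. It was scarce here, with control values from 0.0775 through 0.236 to 0.315 FPKM and CKO values from 0.121 through 0.308 to 0.472 FPKM. The highest values were in CKO 6 and CKO 1 and the lowest in control 6, and the ranges overlapped. The means of 0.228 ± 0.0865 FPKM and 0.303 ± 0.136 FPKM (SD, n = 6 each) gave a log2 difference of 0.27 (95% confidence interval -0.32 to 0.87, limma adjusted P = 0.597). The pseudocount of 0.1 FPKM is large beside these levels and makes this difference smaller. Without CKO 1, CKO 3 and CKO 6 the difference was -0.13, so its sign depended on those libraries. After median-ratio scaling of all 12 libraries the difference was 0.14, with an interval from -0.44 to 0.72.

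Dtna made up nearly all of the dystrobrevin RNA in both groups. Its share of the summed FPKM of Dtna and Dtnb was 98.7% ± 0.516 in controls and 98.5% ± 0.654 in CKOs (SD, n = 6 each; exact permutation test, two-sided, P = 0.574, adjusted P = 0.574). The shares ran from 98.1% to 99.5% in controls and from 97.8% to 99.5% in CKOs. The composition of this pair thus overlapped between the groups.

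Nos1 encodes neuronal nitric oxide synthase, the form that dominates in skeletal muscle fibers. Control values were widely spread, from 3.80 through a median of 5.74 to 10.1 FPKM. CKO values ran from 2.04 through 2.88 to 5.42 FPKM. The highest controls were control 2 at 10.1 and control 6 at 9.01 FPKM, and the only CKO within the control range was CKO 5 at 5.42 FPKM. All 6 CKOs lay below the control mean. The means were 6.43 ± 2.59 FPKM and 3.25 ± 1.19 FPKM (SD, n = 6 each), a difference of -49.4%. The log2 difference was -0.93 (standard error 0.257, 95% confidence interval -1.48 to -0.39), with an unadjusted limma P of 0.00240 and an adjusted P of 0.0693, and it was -1.12 (adjusted P = 0.0731) after scaling. Only 0.481% of the genes tested had a lower log2 difference, against 0.465% for Sntb1. The adjusted P fell below 0.05 on leaving out control 1 (0.0192) or CKO 5 (0.0266), and with sample weights (0.00903). With the 3 CKOs high in slow-fiber genes left out the log2 difference was -0.76 and the adjusted P was 0.553. In that fit Sntb1 and Nos1 were the 2 of the 5 genes lower at an unadjusted P below 0.05, as were 1.28% of all genes, and none of the 5 was called.

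**Figure D3:**
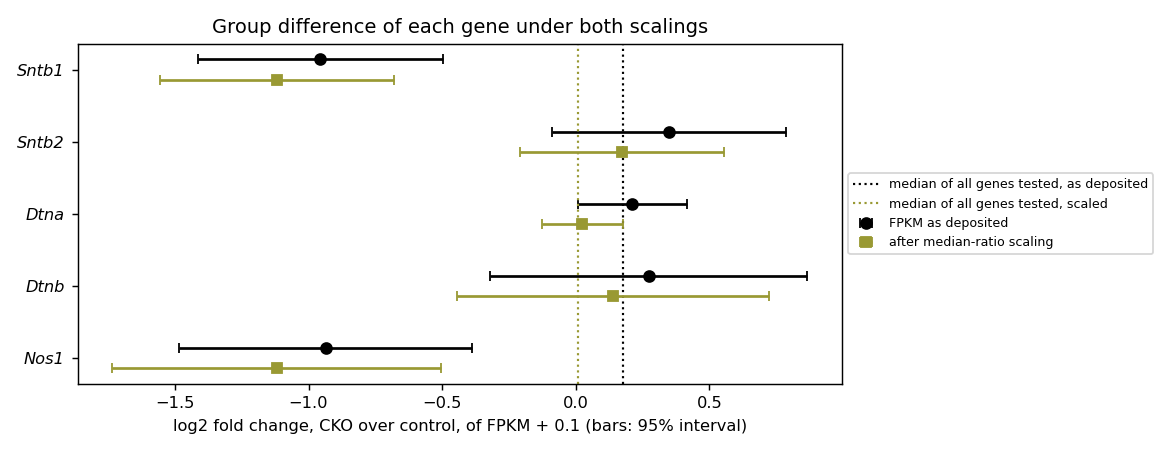
Log2(FPKM + 0.1) difference, CKO minus control, with its 95% confidence interval for each of the 5 genes, from the values as deposited and after median-ratio scaling (limma, n = 6 per group). Sntb1 and Nos1 lie below 0 on both scales, while the intervals of Sntb2 and Dtnb include 0 on both and that of Dtna does so after scaling.

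The order of levels was the same in both groups. Dtna was the most abundant, followed by Nos1, Sntb2, Sntb1 and Dtnb, and among the control means of the 12695 genes tested they stood at percentiles 94.1, 83.1, 50.7, 40.8 and 11.6. In controls the mean of Dtna was 2.73-fold that of Nos1, and Nos1 was 4.06-fold Sntb2, and neither of these neighbours overlapped. The ranges of Sntb2 and Sntb1 did overlap in controls, where their means differed 1.5-fold. In CKOs the step from Dtna to Nos1 was 6.23-fold, and that from Sntb2 to Sntb1 was 3.80-fold with no overlap. Nos1 and Sntb2 overlapped in CKOs but not in controls, with Nos1 above Sntb2 in 6 of 6 CKO libraries. Sntb1 and Dtnb also overlapped in CKOs (1.71-fold, Sntb1 higher in 6 of 6 libraries) and not in controls (4.64-fold).

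Set against dystrophin in the same library, each of the 5 genes had a lower mean ratio in CKOs, where Dmd itself was higher. Sntb1 was 3.72% ± 0.613 of the FPKM of Dmd in controls and 1.17% ± 0.453 in CKOs (SD, n = 6 each), with ranges of 2.91% to 4.31% and 0.757% to 1.99%. Nos1 was 23.2% ± 10.7 of Dmd in controls and 7.68% ± 3.52 in CKOs, and CKO 5, at 13.7%, overlapped the lowest control at 12.6%. Dtna stood at 61.7% ± 4.64 in controls and 47.0% ± 10.3 in CKOs, with overlap. These ratios are descriptions and were not tested.

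Among the nitric oxide synthases, Nos1 was 85.9% ± 4.19 of the FPKM summed over Nos1, Nos2 and Nos3 in controls and 74.2% ± 6.62 in CKOs, with 4 of 6 CKOs below every control. That share was examined after the values of Nos1 were known and has no test.

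The other genes of the complex and of the nitric oxide pathway were read from the same fit, in 5 lists of 41 genes of which 36 were tested. At an unadjusted P below 0.05, 13 were higher and 1 lower, where 18.1% and 1.76% of all genes were. The adjusted threshold was passed by 4 and 1, where 2.02% and 0.268% of all genes did. After median-ratio scaling the unadjusted counts were 5 and 4, where 6.62% of all genes were higher and 7.44% lower. The adjusted counts were then 2 and 1, where 0.764% of all genes were called higher and 0.709% lower. The dystrophin complex core accounted for 3 of the 4 genes called higher as deposited. In this list of 9 tested genes, 8 had an unadjusted P below 0.05 and a higher mean in CKOs, where 18.1% of all genes did. That count was 3 after scaling (6.62% of all genes) and 4 without CKO 1, CKO 3 and CKO 6 (7.02%). The median log2 difference of the list was 0.37 against 0.18 over all genes, or 0.18 against 0.01 after scaling.

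Sgcd, the delta-sarcoglycan, rose from 14.1 ± 1.27 to 25.5 ± 3.72 FPKM (SD, n = 6 each; limma, log2 difference 0.84, adjusted P = 0.00233). Sspn, or sarcospan, which stabilizes the sarcoglycans, rose from 11.9 ± 1.26 to 18.6 ± 1.61 FPKM (log2 difference 0.65, adjusted P = 0.00333). Both kept their calls on leaving out any library, and after scaling their log2 differences were 0.65 and 0.46. Dmd rose from 28.4 ± 2.11 to 44.6 ± 8.89 FPKM (log2 difference 0.63, adjusted P = 0.0188), with a call that was lost after scaling (adjusted P = 0.0573) and on leaving out control 5, CKO 1, CKO 3 or CKO 6. Without CKO 1, CKO 3 and CKO 6 together none of these genes was called, at log2 differences of 0.67, 0.55 and 0.38. Sgcz was listed at 0 in every library.

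**Figure D4:**
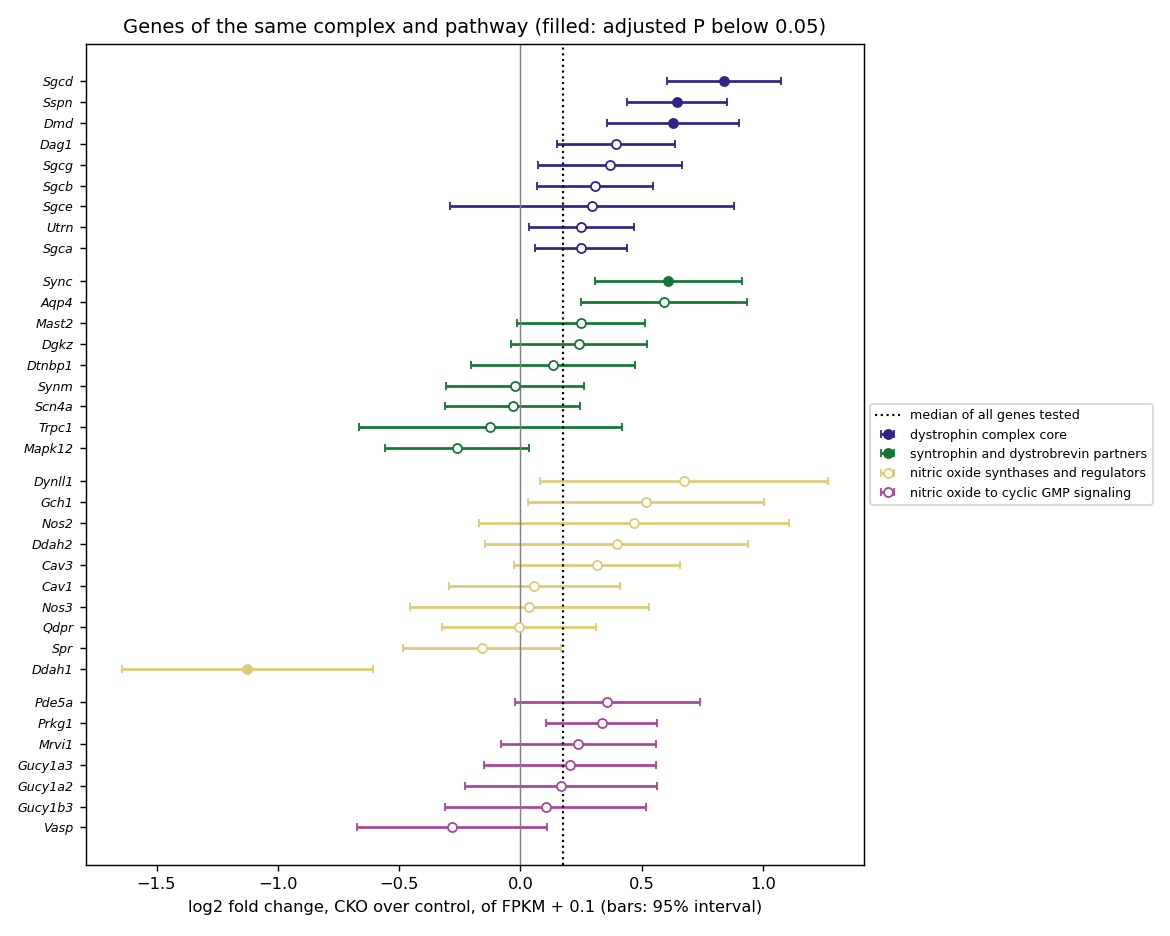
Log2(FPKM + 0.1) difference, CKO minus control, with its 95% confidence interval for the tested genes of 4 pathway lists, from the values as deposited (limma, n = 6 per group). Filled points mark an adjusted P below 0.05, with Sgcd, Sspn, Dmd and Sync higher and Ddah1 lower, and the dotted line is the median of 0.18 over all genes tested.

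Of 9 tested partners of syntrophins and dystrobrevins, 2 were higher at an unadjusted P below 0.05 and 1 was called, with a median log2 difference of 0.13. The share of the list past the unadjusted threshold was near the 18.1% of all genes. After scaling 2 were higher and 1 lower at that threshold, where 6.62% and 7.44% of all genes were. The median of the list was then -0.05, and 0 were called. Sync encodes syncoilin, an intermediate filament protein that binds alpha-dystrobrevin. It rose from 6.91 ± 0.847 to 10.7 ± 2.09 FPKM (SD, n = 6 each; limma, log2 difference 0.61, adjusted P = 0.0393), but no call remained after scaling, and it was lost in 10 of the 12 fits that left out a library. Aqp4, a water channel held at the membrane by the dystrophin complex, was 10.9 ± 2.62 FPKM in controls and 16.2 ± 2.39 FPKM in CKOs (log2 difference 0.59, adjusted P = 0.0658). Its log2 difference after scaling was 0.40.

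Of 10 tested nitric oxide synthases and regulators other than Nos1, 2 were higher and 1 was lower at an unadjusted P below 0.05, and the lower one, Ddah1, was called. The share that was higher was near the 18.1% of all genes, and after scaling 0 were higher and 2 lower. Ddah1 breaks down asymmetric dimethylarginine, an inhibitor of nitric oxide synthases. Its control values ran from 0.593 through 1.06 to 1.25 FPKM and its CKO values from 0.251 through 0.369 to 0.853 FPKM, with 5 of 6 CKOs below every control. The log2 difference was -1.13 (standard error 0.243, limma adjusted P = 0.0269), and -1.29 after scaling (adjusted P = 0.0223). The call was lost in 8 of 12 fits, those without any of controls 2 to 6, CKO 1, CKO 3 or CKO 6. Dynll1, a dynein light chain that binds neuronal nitric oxide synthase, was 2.61 ± 1.21 FPKM in controls and 4.0 ± 1.13 FPKM in CKOs (log2 difference 0.68, adjusted P = 0.194). Its log2 difference after scaling was 0.50.

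Downstream of nitric oxide, none of the 7 genes of cyclic GMP signaling passed the adjusted threshold. At an unadjusted P below 0.05, where 18.1% of all genes were higher, 0 were lower and 1 was higher. That gene was Prkg1, the cyclic GMP-dependent protein kinase, with means of 4.49 and 5.69 FPKM (limma, log2 difference 0.34, adjusted P = 0.113). Pde5a, a phosphodiesterase that degrades cyclic GMP, had means of 0.523 and 0.688 FPKM (log2 difference 0.36, adjusted P = 0.281). After scaling the log2 differences of Prkg1 and Pde5a were 0.15 and 0.20. The unadjusted counts of the list were then 0 higher and 1 lower, where 6.62% and 7.44% of all genes were. The median of this list, 0.21, was close to that of all genes.

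Markers of fiber types and of other cells were summed per library from the values as deposited, and no marker was at 0 in all libraries. The sums were not computed after scaling, and as deposited 77.9% of all genes had a positive log2 difference. Neuromuscular junction genes, where beta-syntrophins and alpha-dystrobrevin are also found, summed to 15.1 to 17.3 FPKM in controls and 20.0 to 32.1 FPKM in CKOs. On this scale all 6 CKOs lay above all controls, while for Sntb1 all 6 lay below. Of the 10 genes of that list, 6 were higher at an unadjusted P below 0.05 and 5 were called, against 18.1% and 2.02% of all genes. After scaling 2 were called, and without CKO 1, CKO 3 and CKO 6 the count was 0, with 5 at an unadjusted P below 0.05. Schwann cell markers summed to 11.4 to 15.9 FPKM in controls and 13.5 to 20.9 FPKM in CKOs, with 4 CKOs above every control. Satellite cell markers summed to 2.04 to 3.79 and 3.26 to 5.24 FPKM, with 3 above. At an unadjusted P below 0.05, 3 of 6 Schwann cell genes and 3 of 4 satellite cell genes were higher (18.1% of all genes). After scaling these counts were 0 and 2 (6.62% of all genes). Endothelial sums overlapped, at 29.3 to 43.3 and 29.0 to 48.5 FPKM. Smooth muscle, fibroblast, macrophage, adipocyte and fast-fiber sums overlapped too, and all 5 were highest in control 1. That library had the lowest Nos1 of the controls at 3.80 FPKM, and the largest total FPKM of all 12 libraries. The fibroblast sum was 545 FPKM in control 1 and 210 FPKM in the next control, against 203 to 318 FPKM in CKOs. Of 5 fibroblast genes, 2 were higher at an unadjusted P below 0.05 (18.1% of all genes), and 1 after scaling (6.62%). The fast-fiber sum hides differences in both directions. Of its 10 genes, 3 were higher and 0 lower at an unadjusted P below 0.05. After scaling 3 were higher and 5 lower, where 6.62% of all genes were higher and 7.44% lower. The part of these markers in the differences of the 5 genes was not tested. Without the 3 CKOs high in slow-fiber genes the log2 difference was -1.10 for Sntb1 and -0.76 for Nos1, against -0.96 and -0.93 with them.

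The genes whose values followed each of the 5 most closely from mouse to mouse were ranked by Pearson correlation of deviations from the group means over the 12 libraries, among 7966 genes with a mean of at least 1 FPKM. For Sntb1 they were Naa50 (r = 0.927), Pex5 (0.898) and Smim13 (0.882). For Sntb2 they were Cxcl14 (0.948), Acsl3 (0.922) and Ogfr (0.921). Dtna was followed by Use1 (0.958) and Cfl2 (0.940), and Dtnb by Pdzd2 (0.922), Ap3d1 (0.904) and Utp20 (0.889). Nos1 had the lowest leading values, with Tmem245 (0.860), Rps6ka2 (0.829) and Pdpr (0.810). These values are the highest of many and share library depth and scaling, so they are given as a description.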

How the data were processed

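RNA-seq was made by the authors from the tibialis anterior of 12 mice, 6 controls and 6 Smyd1 CKOs, grouped by the genotype in the labels. The authors depleted ribosomal RNA, trimmed adapters, aligned with bowtie2 and TopHat2 2.0.10 to mm9 (versions and build from the submitters' processing notes), kept only uniquely mapped reads and computed the deposited FPKM values with Cufflinks 2.1.1. Dropping the other reads can lower genes with close copies. Their own differential expression used counts and DESeq and was not repeated, since only FPKM were analysed here.

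Each file held 23950 rows. The 27 rows with a date in place of the symbol were left out. Depth in reads is unknown, so no counting interval is given. Relative depth, read from the steps between FPKM below 0.15, ran from 0.984 in CKO 5 to 1.77 in CKO 1, with control 1 at 1. Replicates correlated at 0.9435 to 0.972 across genes. Each library is a separate mouse.

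Groups were compared with limma 3.58.1 (R 4.3.3), two-sided, with a variance trend over intensity and no block, on log2(FPKM + 0.1), which understates changes of low genes. Shares were compared by exact permutation tests written in Python 3.11.15, and ranks for Spearman correlations were taken with scipy 1.17.1. The code was tested on simulated data. Alternatives were pseudocounts of 1 and 0.01, no filter or one at 1 FPKM, quantile normalization, median-ratio scaling, the replicate number as a block, no trend, sample weights and each library left out. Leaving out CKO 1, CKO 3 and CKO 6 together was chosen after seeing the data.

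The 5 genes, the pathway lists and the marker lists were chosen with earlier results of these data known. All 5 genes are named. From each pathway list the genes past adjusted P below 0.05 are named, or the 2 with the smallest P if fewer passed, and for each of the 5 genes the 3 genes most like it. Some genes that meet these rules are not reported here, and they stay in the fit and the counts. The share of Nos1 with Nos2 and Nos3 was computed after values were seen.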

Additional observations from a re-analysis of the deposited data

How the results depend on the processing

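The lower Sntb1 share of the beta-syntrophins kept its direction and an exact permutation P below 0.05 in every alternative run, with differences from -22.6 to -17.2 points on leaving out a library. Sntb1 itself was lower throughout, at log2 differences from -1.07 to -0.85 on leaving out a library, but 9 of those 12 fits lost its call. The call was also lost with no filter (-0.96, limma unadjusted P = 0.00114, adjusted P = 0.0871), a fit with more genes. It was lost too without CKO 1, CKO 3 and CKO 6 (-1.10, limma adjusted P = 0.266), a fit with fewer samples. Nos1 was lower in every alternative, at -1.12 with median-ratio scaling, -0.76 without the 3 CKOs and from -1.09 to -0.79 on leaving out a library, and was called with sample weights (-1.07). Without those 3 CKOs the signs of Dtnb (-0.13) and of the Dtna share (0.297 points) reversed, and the cause was not tested.

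The 257 genes called higher became 133 with no filter, 97 with median-ratio scaling, 101 with quantile normalization, 1400 with sample weights and 4 without the 3 CKOs (88 to 1075 on leaving out a library). The 34 called lower became 12, 90, 68, 115 and 3 (18 to 69). Of the 5 genes, the 1 called lower became 0 with a filter at 1 FPKM, which removes Sntb1 and Dtnb, 0 with no filter, 2 with sample weights and 0 without the 3 CKOs (0 to 2 on leaving out a library). At the unadjusted threshold the 1 higher became 0 with median-ratio scaling, quantile normalization, no trend or the 3 CKOs left out (0 to 2), and the 2 lower became 1 with the filter at 1 FPKM. In the pathway lists the 4 called higher became 2 with no filter, 2 with median-ratio scaling, 11 with sample weights and 0 without the 3 CKOs (2 to 8), and the 1 called lower became 0 with the filter at 1 FPKM, with no filter and without the 3 CKOs (0 to 1). At the unadjusted threshold the 13 higher became 5 with median-ratio scaling, 7 with quantile normalization and 6 without the 3 CKOs, and the 1 lower became 0 with the filter at 1 FPKM and 4 with either scaling (1 to 3).

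Same-numbered libraries resembled each other little (correlation of deviations -0.0861 to 0.164), with a mean of 0.0404 against -0.00879 for other pairs. Among the 6 libraries of the other group, 5 of 12 libraries were closest to their own number. The numbers were not taken to pair mice, and whether they do was not tested. With the number as a block, Sntb1 kept its value of -0.96 (adjusted P = 0.0478) and Nos1 had an adjusted P of 0.0906. The block P of the Sntb1 share, by an exact sign-flip test, was 0.0312, the smallest possible.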

Other observations

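Pairs among the 5 genes were compared by their deviations from the group means over the 12 libraries, with permutation within groups. None of the 10 pairs passed the adjusted threshold. The closest was Sntb1 with Dtna (Pearson r = 0.649, permutation P = 0.00743, adjusted P = 0.0743; Spearman rho = 0.608, permutation P = 0.0222, adjusted P = 0.222), and r was 0.592 without the 2 libraries farthest from the median of Sntb1. For Sntb2 with Nos1, r was -0.602 (permutation P = 0.0592, adjusted P = 0.296; Spearman rho = -0.594, permutation P = 0.0629, adjusted P = 0.315), but -0.24 without the 2 farthest libraries, so that relation rests on those. Within groups it was -0.927 over the 6 controls and 0.256 over the 6 CKOs. Controls 2 and 6 had the highest Nos1 and the lowest Sntb2 of the controls.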
